A study of Gallus gallus with 4 samples.

Results

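The genes described here encode the enzymes that break glucose down to pyruvate and lactate, the pyruvate dehydrogenase complex with its kinases, the citrate cycle, and the PFKFB and PEP carboxykinase enzymes beside them. They were chosen by name, 37 of 18300 named genes, and all 37 were found in the tables and passed the filter on low counts. PolyA RNA came from retinal explants of chick embryos at embryonic day 5 that were electroporated with ThrbCRM1-GFP, in which an enhancer element from THRB, a gene for a thyroid hormone receptor, drives GFP, and with UbiqC-Tdt, which marks electroporated cells in red, and that were cultured for about 20 hours. Cells positive for both reporters form the ThrbCRM1 population, and cells positive for TdTomato alone form the UbiqC population. Both groups thus came from tissue that was given both plasmids and the same culture. Each population had 2 libraries, A and B, with 30959178 and 16087500 estimated counts in ThrbCRM1 and 15673010 and 31659766 in UbiqC. The labels give neither a strain nor a number of embryos, and they do not say whether A and B are separate cultures. The p-values thus rest on a spread between libraries that may be technical only.

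Glycolysis turns glucose into pyruvate in the cytosol through a chain of enzymes, several of which exist as isozymes encoded by separate genes. Lactate dehydrogenase turns pyruvate into lactate and regenerates the NAD+ that the chain consumes, while pyruvate dehydrogenase, which is switched off by its kinases, passes carbon from pyruvate to the citrate cycle in mitochondria. Retinal progenitors and photoreceptors are both known for making lactate even when oxygen is present.

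The labelled tissue could be read from its markers. All 9 retinal progenitor markers found, PAX6 and SOX2 among them, were detected in every library, and they summed to 1659 and 1481 TPM in ThrbCRM1 A and B, against 2372 and 2165 TPM in UbiqC A and B. Of the 9 progenitor markers 1 rose and 7 fell, against 19.9% and 20.9% of all tested genes. The 9 markers of restricted progenitors and photoreceptors all rose, against the same shares. Their sums were 4426 and 5186 TPM in ThrbCRM1 against 148 and 154 TPM in UbiqC. THRB is among them, and an element from it drives the GFP used for sorting, so its rise is no separate evidence. NR2E3, another of them, was near absent in UbiqC, at 0.073 and 0.713 TPM against 58.1 and 61.9 TPM in ThrbCRM1, so its call carries little weight. Of other cell types, 6 glial markers summed to 20.1 and 16.9 TPM in ThrbCRM1 against 105 and 120 TPM in UbiqC. Of 5 tested glial markers 0 rose and 4 fell, against 19.9% and 20.9% of all tested genes. GFAP and AQP4 stayed below 1 TPM in every library, and S100B did not pass (log2 fold change -0.03). The 9 endothelial and mesenchymal markers summed to 25.03 and 28.6 TPM against 68.6 and 92.4 TPM. A single gene held most of each UbiqC sum, SLC1A3 with 65.4 and 76.9 TPM and KDR with 53.8 and 74.2 TPM. The 6 pigment epithelium markers summed to 17.6 and 17.1 TPM in ThrbCRM1 against 20.1 and 19.0 TPM in UbiqC. Of these 6, 2 rose and 1 fell, against 19.9% and 20.9% of all tested genes, and the others did not pass. MITF fell (log2 fold change -1.35), and DCT and TYRP1 rose (0.95 and 3.44). TYRP1 was near absent, at 1.47 and 1.29 TPM in ThrbCRM1 and 0 and 0.189 TPM in UbiqC, so its call carries little weight. The 6 lens markers summed to 14.5 and 12.4 TPM in ThrbCRM1 against 61.9 and 68.4 TPM in UbiqC. CRYAB held most of the UbiqC sum, with 51.8 and 60.9 TPM. Of 4 tested lens markers 1 rose and 2 fell, against 19.9% and 20.9% of all tested genes. For 4 muscle markers the sums were 8.50 and 7.60 TPM against 21.7 and 19.5 TPM, where DES alone had 14.9 and 13.7 TPM in UbiqC. The 2 blood and immune markers found summed to 7.67 and 7.99 TPM in ThrbCRM1 against 3.16 and 2.54 TPM in UbiqC, and TAL1, the single red blood cell marker found, stayed below 1 TPM in every library. None of these markers was at 0 in all libraries, and the part of the other cell types in the enzyme results was not tested.

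Between ThrbCRM1 and UbiqC cells the enzymes did not move as a block. Of the 37 genes, 5 rose and 10 fell in ThrbCRM1, and 22 did not pass the test (edgeR quasi-likelihood test, Benjamini-Hochberg adjusted p below 0.05 over all tested genes). Among all 16778 tested genes 40.8% passed, 19.9% higher and 20.9% lower, so the 15 calls (40.5% of the enzyme genes) were as frequent as among genes at large. The median log2 fold change was -0.11 over the 37 genes and -0.01 over all tested genes. A change above 1.5-fold was called for 4 genes higher in ThrbCRM1 (HK2, ENO2, PDK4 and PCK1) and 4 lower (PGK1, ENO1, LDHA and LDHB), where the shares among all tested genes were 13.0% and 13.6%. PCK1 had few counts and passed the filter only through ThrbCRM1, where it is high, and without it 4 genes rose, 3 of them above 1.5-fold. On the CPM scale the libraries of the groups did not overlap for 28 of the 37 genes, with 11 higher and 17 lower in ThrbCRM1, where 72.0% of all tested genes did not overlap, 35.2% higher and 36.7% lower. Without ThrbCRM1 A 3 enzyme genes were higher and 6 lower (13.4% and 13.9% of all genes tested in that fit), without ThrbCRM1 B 4 and 5 (12.6% and 13.1%). The counts were 4 and 8 without UbiqC A (15.4% and 15.5%), and 4 and 10 without UbiqC B (18.7% and 18.0%). Each of these fits leaves a group with a lone library, and the shares among all tested genes fell as well. A call lost there may thus reflect fewer libraries alone, so these counts cannot show dependence on a particular library. With the library letter as a replicate block 6 were higher and 13 lower, against 24.0% and 25.9% of all tested genes. In these bulk libraries, fewer cells that express a gene and less RNA per cell cannot be told apart.

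**Figure D1:**
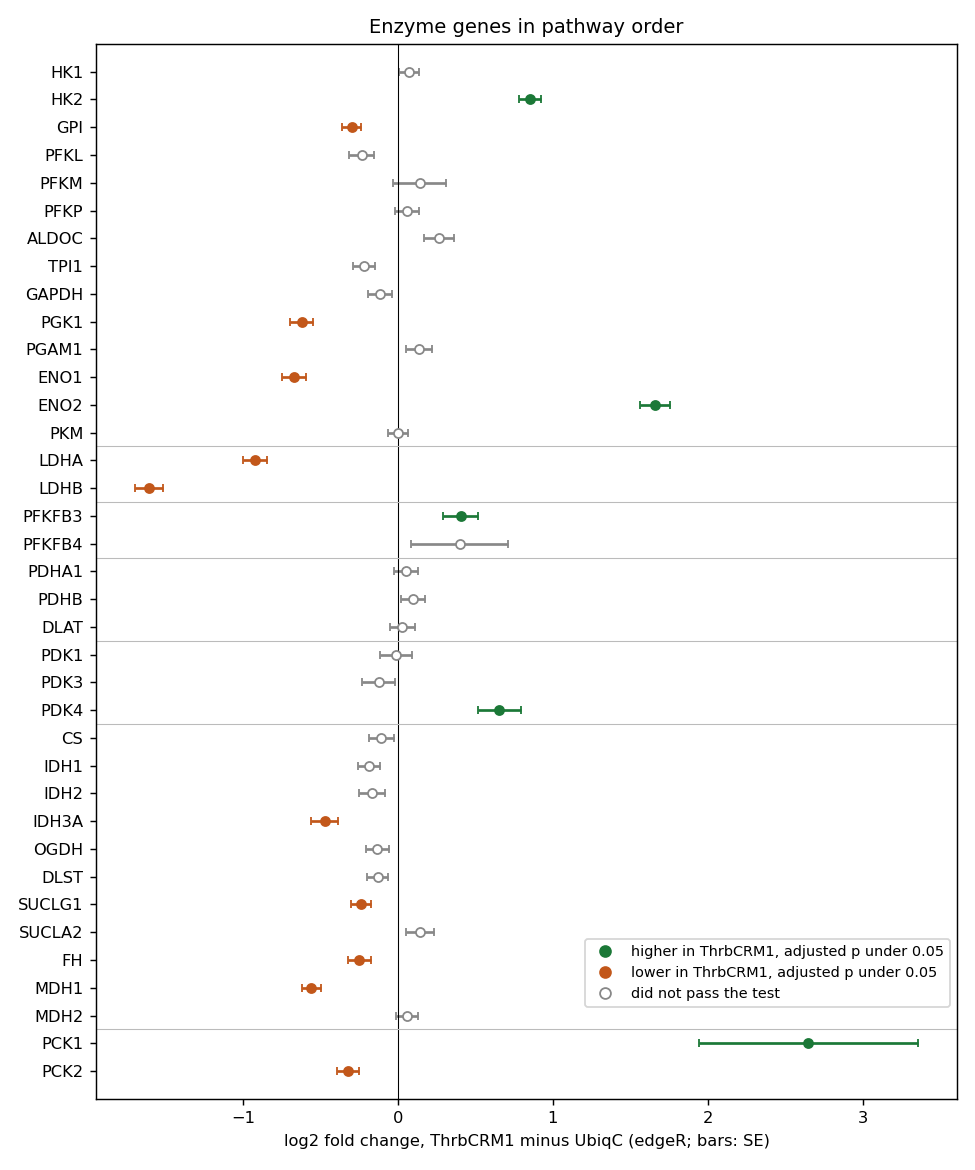
Log2 fold change of each of the 37 enzyme genes (x axis, ThrbCRM1 minus UbiqC, edgeR) in pathway order from hexokinase to PEP carboxykinase (y axis), with bars for the standard error and filled points for genes past the test. LDHA and LDHB lie far to the left at -0.92 and -1.61, ENO2 and HK2 to the right at 1.66 and 0.85, and PCK1, a gene with few counts, has the widest bar.

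In levels per transcript length (TPM), 8 of the 14 glycolytic genes averaged at least 100 TPM over the libraries, while PFKM stayed below 5 TPM. GAPDH, the dehydrogenase in the middle of the chain, and ENO1, an enolase, stood highest, and 18 of all 37 genes reached that average. Summed over the 14 genes from hexokinase to pyruvate kinase, the level was 14104 and 14326 TPM in ThrbCRM1 A and B, against 17001 and 15665 TPM in UbiqC A and B. That sum was lower in both ThrbCRM1 libraries, at 0.870 of the UbiqC mean. ALDOA, another aldolase gene, was not found among the named genes, so ALDOC alone stands for the aldolase step in the sum. Without ENO1 the other 13 genes summed to 10228 and 10406 TPM in ThrbCRM1 and to 10751 and 10033 TPM in UbiqC, which overlapped, with a ratio of 0.993. The 9 mitochondrial citrate cycle genes summed to 1009 and 952 TPM in ThrbCRM1 and to 1031 and 983 TPM in UbiqC, where the ranges overlapped and the ratio of the means was 0.974.

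**Figure D2:**
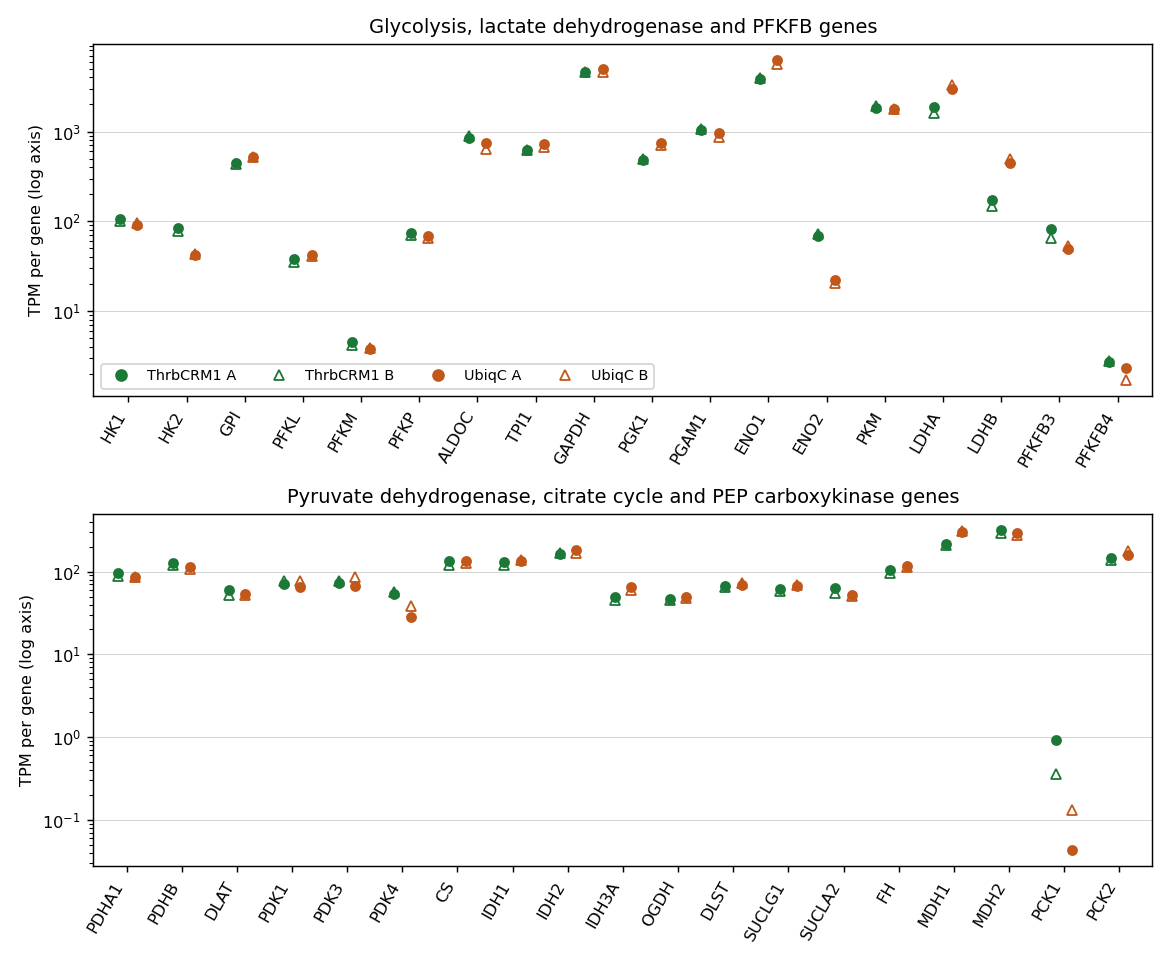
TPM of each gene in each library (y axis, log scale), with ThrbCRM1 in green to the left of UbiqC in orange, circles for A and triangles for B. The upper panel holds the glycolytic genes with lactate dehydrogenase and PFKFB. The lower panel holds pyruvate dehydrogenase with its kinases, the citrate cycle with the cytosolic IDH1 and MDH1, and PEP carboxykinase. The levels run from 6251 TPM for ENO1 in UbiqC A to 0.0429 TPM for PCK1 in the same library.

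Lactate dehydrogenase fell in both of its genes. LDHA, whose subunit is known to favour the making of lactate, had 1855 and 1610.3 TPM in ThrbCRM1 A and B, against 2994 and 3301 TPM in UbiqC A and B. LDHB, whose subunit favours the return of lactate to pyruvate, had 175 and 148 TPM in ThrbCRM1 and 449 and 497 TPM in UbiqC. For both genes each ThrbCRM1 library lay below each UbiqC library, and the groups were far apart compared with the spread within them. The log2 fold change was -0.92 ± 0.08 (SE) for LDHA (edgeR adjusted p = 0.000319) and -1.61 ± 0.09 for LDHB (edgeR adjusted p = 6.2e-05). Together the genes gave 2031 and 1759 TPM in ThrbCRM1, against 3443 and 3798 TPM in UbiqC, a ratio of the means of 0.523.

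Since LDHB fell further than LDHA, the make-up of the pair moved as well. LDHA took 91.4% and 91.6% of the summed LDH TPM in ThrbCRM1 A and B, against 87.0% and 86.9% in UbiqC A and B. The difference of 4.53 percentage points exceeded the spread within either group, where the SD was 0.131 points in ThrbCRM1 and 0.0200 points in UbiqC. An exact two-sided permutation test over 2 against 2 libraries cannot give a p below 0.333, and that is the value it gave here and for every isozyme share whose groups did not overlap.

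At the first step, hexokinase, which traps glucose in the cell as a phosphate, only HK2 was called. HK2 rose to 83.4 and 77.2 TPM in ThrbCRM1 A and B, against 42.1 and 43.1 TPM in UbiqC, a log2 fold change of 0.85 ± 0.07 (edgeR adjusted p = 0.000283). HK1 had 107 and 101 TPM in ThrbCRM1 and 90.2 and 96.6 TPM in UbiqC, with a log2 fold change of 0.07 and a 95% interval of -0.08 to 0.23. HK1 was the more abundant of the pair in all 4 libraries, but its share of the pair was 56.2% and 56.7% in ThrbCRM1, against 68.2% and 69.2% in UbiqC.

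Enolase, near the end of the chain, changed in opposite directions in its 2 genes. ENO1, the widely expressed enolase, fell to 3876 and 3919.8 TPM in ThrbCRM1 A and B, against 6251 and 5632 TPM in UbiqC (log2 fold change -0.67 ± 0.08, edgeR adjusted p = 0.00116). ENO2, known as the enolase of neurons, rose to 68.8 and 72.8 TPM in ThrbCRM1, against 22.5 and 20.7 TPM in UbiqC (log2 fold change 1.66 ± 0.10, edgeR adjusted p = 8.1e-05). Neither gene's groups overlapped. ENO2 stayed a small part of the step, since ENO1 held 98.3% and 98.2% of the summed enolase TPM in ThrbCRM1 and 99.6% in both UbiqC libraries, and the summed level of the step was 0.666 of that in UbiqC.

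PGK1, the kinase that makes the first ATP of the chain, was the other strongly lowered glycolytic gene. It fell to 485 and 500.1 TPM in ThrbCRM1, against 746 and 706 TPM in UbiqC, with no overlap and a log2 fold change of -0.62 ± 0.07 (edgeR adjusted p = 0.00122). GPI, the isomerase that follows hexokinase, stood at 451 and 431 TPM in ThrbCRM1 and at 522 and 516 TPM in UbiqC, a smaller fall (log2 fold change -0.30 ± 0.06, edgeR adjusted p = 0.0113). The call of GPI was lost without ThrbCRM1 A (edgeR adjusted p = 0.0691) and without ThrbCRM1 B (0.0835), while its log2 fold change stayed near -0.30 and -0.29.

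The other 9 of the 14 glycolytic genes did not pass the test. GAPDH stood at 4589.7 and 4622 TPM in ThrbCRM1 and at 5006 and 4562 TPM in UbiqC, and these groups overlapped in TPM. On the CPM scale they were barely apart, at 2821.5 and 2926.0 in ThrbCRM1 against 3309.9 and 2926.6 in UbiqC. PKM, the pyruvate kinase of most tissues, stood at 1815 and 1920.3 TPM in ThrbCRM1 and at 1786 and 1797 TPM in UbiqC, and its log2 fold change of 0.00 had a 95% interval of -0.16 to 0.16. PGAM1, the mutase after PGK1, stood at 1036 and 1056 TPM in ThrbCRM1 against 961 and 861 TPM in UbiqC (log2 fold change 0.14). For these 3 abundant genes any difference was small beside those of LDHA and ENO1.

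ALDOC, an aldolase known from brain, and TPI1, the triosephosphate isomerase, lay near the threshold. ALDOC stood at 847 and 887 TPM in ThrbCRM1 against 738 and 641 TPM in UbiqC (log2 fold change 0.27 ± 0.10, edgeR adjusted p = 0.0727), and without UbiqC A it passed the test (log2 fold change 0.39, edgeR adjusted p = 0.0207). TPI1 stood at 629 and 629 TPM in ThrbCRM1 against 722 and 679 TPM in UbiqC (log2 fold change -0.22 ± 0.07, edgeR adjusted p = 0.0547), and passed without UbiqC B (-0.28, edgeR adjusted p = 0.0342). In both genes the groups did not overlap. ALDOC also passed with the DESeq2 test (DESeq2 adjusted p = 0.0185), as did TPI1 (0.0394). ALDOC passed as well with limma on log2(TPM + 1) and log2(TPM + 0.1) (limma adjusted p = 0.0203 and 0.0222) and with the 5 CPM filter (edgeR adjusted p = 0.0475).

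Phosphofructokinase, the regulated step of the chain, had 3 genes and none of them passed. PFKP, known as the platelet form, was the most abundant at 74.1 and 70.7 TPM in ThrbCRM1 against 69.1 and 64.7 TPM in UbiqC. PFKL, the liver form, stood at 37.8 and 35.6 TPM in ThrbCRM1 against 42.1 and 40.7 TPM in UbiqC (log2 fold change -0.24 ± 0.08, edgeR adjusted p = 0.0582), and PFKM, the muscle form, stayed at or below 4.57 TPM. The summed level of the step was 116 and 110.5 TPM in ThrbCRM1 against 115 and 109 TPM in UbiqC. Within that total PFKL took 32.4% and 32.2% in ThrbCRM1 and 36.6% and 37.2% in UbiqC.

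The PFKFB enzymes set the level of the sugar phosphate that activates phosphofructokinase. PFKFB3 rose to 81.6 and 65.4 TPM in ThrbCRM1 A and B, against 49.6 and 53.4 TPM in UbiqC (log2 fold change 0.41 ± 0.11, edgeR adjusted p = 0.0311). This call was lost without ThrbCRM1 A, where the log2 fold change was 0.24 (edgeR adjusted p = 0.146), and also without UbiqC A (0.0943) and without UbiqC B (0.0588). PFKFB4 stayed at or below 2.80 TPM and had a wide 95% interval of -0.36 to 1.16 on the log2 scale, so a difference in it was not detectable at this depth.

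**Figure D3:**
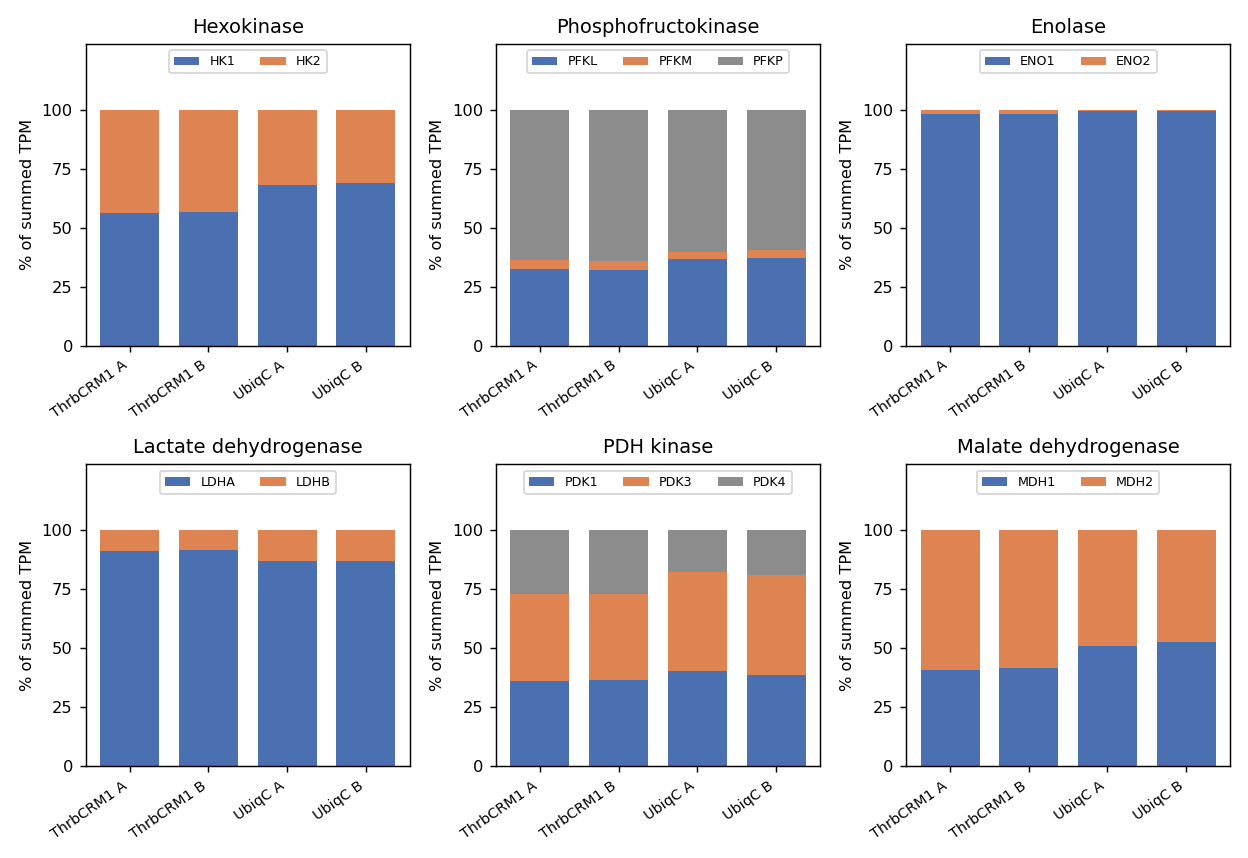
Share of each gene in the summed TPM of its step (y axis, percent) in each library (x axis) for 6 steps with several genes, ThrbCRM1 libraries to the left. HK2, PDK4 and MDH2 take a larger part of their step in both ThrbCRM1 libraries, and LDHB a smaller part, while the 2 libraries of a group lie close to each other.

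The pyruvate dehydrogenase complex, which links glycolysis to the citrate cycle, showed no called change. PDHA1 and PDHB, the subunits of its first enzyme, had log2 fold changes of 0.05 (95% interval -0.14 to 0.24) and 0.10 (95% interval -0.09 to 0.28). DLAT, its acetyltransferase, had 0.03 (95% interval -0.17 to 0.23). The 3 genes summed to 283 and 260.3 TPM in ThrbCRM1, against 253 and 246 TPM in UbiqC.

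Of the kinases that switch the complex off, PDK4 alone was called. PDK4, known to rise in tissues that burn fat, rose to 53.9 and 56.7 TPM in ThrbCRM1, against 28.4 and 38.7 TPM in UbiqC (log2 fold change 0.65 ± 0.14, edgeR adjusted p = 0.011). The call was lost without ThrbCRM1 B (log2 fold change 0.60, edgeR adjusted p = 0.0612). PDK1 stood at 71.1 and 76.1 TPM in ThrbCRM1 against 64.3 and 77.5 TPM in UbiqC, and PDK3 at 72.9 and 76.5 TPM against 67.1 and 86.0 TPM, so both overlapped. All 3 kinases were lower in UbiqC A than in UbiqC B, and the means of the PDK4 groups lay further apart than its UbiqC libraries. PDK4 held 27.2% and 27.1% of the summed kinase TPM in ThrbCRM1 against 17.8% and 19.1% in UbiqC.

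In the citrate cycle and its cytosolic partners, 4 of 11 genes fell and 0 rose (36.4% and 0%, against 20.9% and 19.9% of all tested genes). Of the 4 calls, that of MDH1 alone was kept under all 12 alternative analyses. MDH1, the cytosolic malate dehydrogenase of the shuttle that carries NADH electrons into mitochondria, fell most, to 219 and 209.6 TPM in ThrbCRM1 A and B, against 299 and 306 TPM in UbiqC (log2 fold change -0.56 ± 0.06, edgeR adjusted p = 0.000864). Its mitochondrial counterpart MDH2 stood at 319 and 296 TPM in ThrbCRM1 against 291 and 275 TPM in UbiqC (log2 fold change 0.06, 95% interval -0.12 to 0.24). MDH1 accordingly made up 40.6% and 41.5% of the summed malate dehydrogenase TPM in ThrbCRM1, against 50.6% and 52.6% in UbiqC.

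IDH3A, the catalytic subunit of the NAD-linked isocitrate dehydrogenase of the cycle, stood at 49.6 and 44.9 TPM in ThrbCRM1, against 65.4 and 60.7 TPM in UbiqC (log2 fold change -0.47 ± 0.09, edgeR adjusted p = 0.0066). It lost its call without ThrbCRM1 B (log2 fold change -0.42, edgeR adjusted p = 0.0528). The NADP-linked enzymes IDH1 of the cytosol and IDH2 of mitochondria did not pass (log2 fold changes -0.19 and -0.17). IDH1 stood at 132 and 121 TPM in ThrbCRM1 against 134 and 139.6 TPM in UbiqC, and passed only with the letter as a replicate block (edgeR adjusted p = 0.0315).

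Smaller falls were called for SUCLG1 and FH. SUCLG1, a subunit of the ligase that makes succinate, stood at 62.2 and 59.1 TPM in ThrbCRM1 against 67.2 and 69.6 TPM in UbiqC (log2 fold change -0.24 ± 0.06, edgeR adjusted p = 0.0296), and FH, the fumarase, at 106 and 97.3 TPM against 118 and 113 TPM (-0.25 ± 0.08, edgeR adjusted p = 0.0425). Neither call was firm. That of SUCLG1 was lost without any of the libraries, with an edgeR adjusted p of 0.143 without ThrbCRM1 A, 0.184 without ThrbCRM1 B, 0.0704 without UbiqC A and 0.0795 without UbiqC B. That of FH was lost without ThrbCRM1 A (0.136), without ThrbCRM1 B (0.224) and without UbiqC A (0.145), and both were lost with the DESeq2 test (DESeq2 adjusted p = 0.0522 for SUCLG1 and 0.0754 for FH).

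The remaining genes of the cycle did not pass. CS, the citrate synthase that opens it, stood at 133 and 121 TPM in ThrbCRM1 against 134 and 126 TPM in UbiqC and overlapped. OGDH and DLST, of the oxoglutarate dehydrogenase complex, each had a log2 fold change of -0.13, and SUCLA2, the partner of SUCLG1, had 0.14. SUCLG1 and SUCLA2 together gave 125 and 114 TPM in ThrbCRM1 against 119 and 119.9 TPM in UbiqC.

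PEP carboxykinase works against glycolysis, since it makes the substrate of pyruvate kinase from oxaloacetate. PCK2, the mitochondrial form, fell to 145 and 139 TPM in ThrbCRM1, against 161 and 179 TPM in UbiqC (log2 fold change -0.32 ± 0.07, edgeR adjusted p = 0.0121), and lost its call without ThrbCRM1 A (edgeR adjusted p = 0.0805) and without ThrbCRM1 B (0.0873). PCK1, the cytosolic form, was nearly absent, with 39 and 8 estimated counts in ThrbCRM1 and 1 and 6 in UbiqC, and passed the filter through ThrbCRM1. A gene that enters through the group where it is high is favoured in the test, so its call carries no weight, and its fitted fold change also depends on the prior count. PCK1 made up 0.627% and 0.258% of the summed PEP carboxykinase TPM in ThrbCRM1, against 0.0266% and 0.0736% in UbiqC.

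At q below 0.05 the authors' deposited table has 5 of the 37 genes higher and 12 lower in ThrbCRM1, where 39.9% of its genes were called, 18.6% higher and 21.3% lower. The 15 genes called here were all called there in the same direction, and PFKL and TPI1 were called only in the authors' deposited table (q = 0.0235 and 0.00524). Both sets of calls come from the same 4 libraries, so they compare methods.

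Many of the genes have several transcripts in the tables, 72 in all, with 18 genes that have more than 1. In 15 of these 18 genes, LDHA, PKM and ENO1 among them, no transcript's share of the gene's TPM differed by 20 percentage points or more between the group means with the libraries apart. LDHA's transcripts NM_205284.1 and XM_015286580.1 kept nearly even shares, the first at 51.6% and 52.6% in ThrbCRM1 and at 52.1% and 53.2% in UbiqC. The pair of MDH1 transcripts has equal lengths and equal estimates in every library, so the tables do not tell them apart.

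For PFKP, CS and OGDH, whose summed level passed no test, the transcript make-up differed. In OGDH the transcript XM_015297481.1 held 63.6% and 68.1% of the gene's TPM in ThrbCRM1 A and B, against 32.8% and 32.0% in UbiqC, while XM_015297482.1 held 12.7% and 12.6% in ThrbCRM1 and 44.7% and 39.5% in UbiqC. The difference of 33.5 points in XM_015297481.1 compares with at most 5.32 points between 2 libraries of a group in any OGDH transcript. In CS, XM_015300287.1 held 38.5% and 44.9% in ThrbCRM1, against 21.4% and 21.5% in UbiqC.

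PFKP showed the same with more spread. Its transcript XM_015281568.1 was listed at 0 in both ThrbCRM1 libraries, against 15.2 and 21.2 TPM in UbiqC, and XM_015281565.1 held 28.1% and 29.6% in ThrbCRM1 against 8.70% and 1.84% in UbiqC. Transcript lengths ran from 2937 to 3354 bases in PFKP and from 3291 to 3334 bases in OGDH. Reads that match several transcripts are divided among them by estimation, and no error of that division is used here. These shares were not tested.

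**Figure D4:**
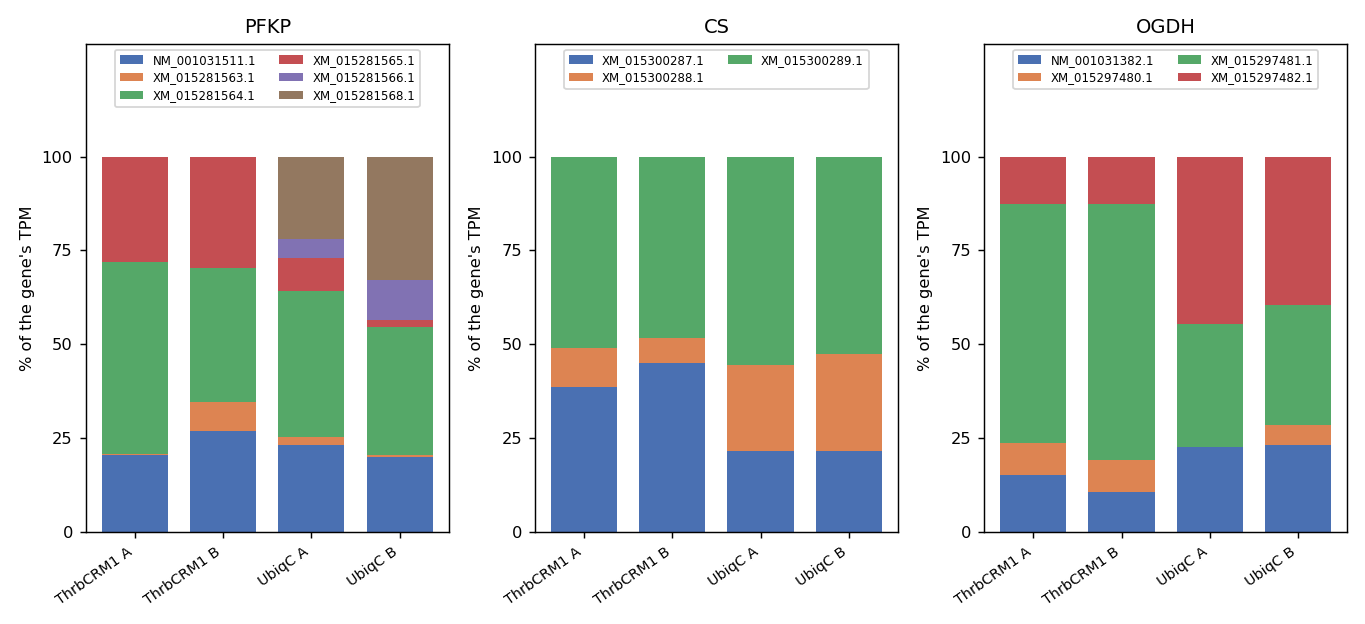
Share of each transcript in the TPM of PFKP, CS and OGDH (y axis, percent) in each library (x axis), ThrbCRM1 libraries to the left. The green part of OGDH, XM_015297481.1, takes 63.6% and 68.1% in ThrbCRM1 and 32.8% and 32.0% in UbiqC, and the brown part of PFKP, XM_015281568.1, is seen only in the UbiqC libraries.

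Carriers of glucose and lactate in the cell membrane included several large changes. Of 15 tested transport genes 3 rose and 5 fell (53.3% called, against 40.8% of all tested genes), with a median log2 fold change of -0.16. SLC2A1, a glucose transporter of many embryonic tissues, fell to 152 and 131 TPM in ThrbCRM1, against 634 and 646 TPM in UbiqC (log2 fold change -2.24 ± 0.08, edgeR adjusted p = 1.65e-05). SLC16A1, a carrier of lactate and pyruvate, fell to 34.0 and 32.3 TPM in ThrbCRM1, against 242 and 262 TPM in UbiqC (-2.99 ± 0.07). SLC16A3, a lactate exporter of glycolytic cells, went the other way, with 312 and 331 TPM in ThrbCRM1 against 120.1 and 124 TPM in UbiqC (1.33 ± 0.07). No library of one group reached the range of the other for any of these carriers. Of these 2 lactate carriers, SLC16A3 was the more abundant in ThrbCRM1 and SLC16A1 in UbiqC. SLC16A7, a related carrier of the list named after its value was seen, also rose, by 2.35. Its level was low, at 4.31 and 6.34 TPM in ThrbCRM1 against 1.23 and 1.24 TPM in UbiqC.

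MPC1, a subunit of the carrier that lets pyruvate into mitochondria, was named after its value was seen, as were the next genes of this paragraph. It fell by 0.81 on the log2 scale, while its partner MPC2 did not pass (log2 fold change -0.16). SLC2A3, a glucose transporter of neurons, did not pass (0.09). BSG, the chaperone of lactate carriers, stood at 576 and 596 TPM in ThrbCRM1 against 471 and 505 TPM in UbiqC and did not pass (log2 fold change 0.21, edgeR adjusted p = 0.0521), while EMB, the other known chaperone, rose by 1.11.

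Among 23 other tested genes of glycolysis and pyruvate use, 0 rose and 3 fell, and 20 did not pass (edgeR quasi-likelihood test; 7 had an unadjusted p below 0.05). The 13.0% called compare with 40.8% of all tested genes, and the list had a median log2 fold change of -0.01. PGM2 and PGM1, which interconvert glucose phosphates, fell by 0.84 and 0.76. LDHD, a lactate dehydrogenase for the D form, fell by 1.27, with levels below 2 TPM in every library. PGM1 lost its call without ThrbCRM1 A (edgeR adjusted p = 0.0506). LDHD lost its call without any of the libraries (edgeR adjusted p from 0.0691 to 0.172). With the DESeq2 test the counts were 0 higher and 2 lower, and without UbiqC B the edgeR test gave 3 higher.

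Of 14 other citrate cycle and neighbouring genes 2 rose and 8 fell, against 19.9% and 20.9% of all tested genes, with a median log2 fold change of -0.37. SUCLG2, the third ligase subunit, stood at 14.8 and 16.0 TPM in ThrbCRM1 against 26.3 and 30.6 TPM in UbiqC (log2 fold change -0.95 ± 0.11, edgeR adjusted p = 0.000951). ME3, a malic enzyme, fell by 1.75 and ACSS1, a mitochondrial acetyl-CoA synthetase, by 1.60, both with levels below 10 TPM. The genes that rose, named after their values were seen, were OGDHL, related to OGDH, by 1.79 and ACLY, which makes acetyl-CoA from citrate, by 0.42. The count that fell was 5 without ThrbCRM1 A and 5 without ThrbCRM1 B.

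Genes of the response to low oxygen, regulators such as HIF1A and EPAS1 among them, moved in both directions. Of 18 tested genes 3 rose and 10 fell, against 19.9% and 20.9% of all tested genes, with a median log2 fold change of -0.47. The count that rose was 6 with the replicate block and with the 5 CPM filter, and 5 with DESeq2 and with limma. P4HA2, a collagen prolyl hydroxylase, fell by 2.41, EPAS1, a hypoxia-inducible factor, by 1.76, and NDRG1, a stress response gene, to 93.8 and 104 TPM in ThrbCRM1, against 302 and 277 TPM in UbiqC (log2 fold change -1.61 ± 0.10). HIF1A, chosen with its value known, stood at 122 and 116 TPM in ThrbCRM1 against 92.9 and 101 TPM in UbiqC and did not pass (edgeR adjusted p = 0.0558). The endothelial marker KDR stood at 6.05 and 6.20 TPM in ThrbCRM1 against 53.8 and 74.2 TPM in UbiqC. PECAM1, another endothelial marker, stood at 5.82 and 8.23 TPM in ThrbCRM1 against 3.88 and 5.075 TPM in UbiqC and did not pass. Of the 9 endothelial and mesenchymal markers 1 rose and 5 fell, against 19.9% and 20.9% of all tested genes. The part of such cells in the hypoxia values was not tested.

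In the pentose phosphate pathway, which branches from glycolysis to make ribose and NADPH, 0 of 7 tested genes rose and 4 fell, against 19.9% and 20.9% of all tested genes. PGD, one of its dehydrogenases, stood at 89.95 and 87.0 TPM in ThrbCRM1 against 127 and 126 TPM in UbiqC (log2 fold change -0.58 ± 0.07, edgeR adjusted p = 0.00114), RPIA fell by 0.70, and TKT, a transketolase, by 0.28. TKT lost its call without ThrbCRM1 A (edgeR adjusted p = 0.138), without ThrbCRM1 B (0.0717) and without UbiqC A (0.0649), and the count of the list that fell was 2 without ThrbCRM1 A. Of 7 genes of the shuttles that move NADH electrons into mitochondria 3 rose and 3 fell, so 6 of 7 were called, against 40.8% of all tested genes. SLC25A13, a mitochondrial aspartate-glutamate carrier, and GPD2, a glycerol phosphate dehydrogenase, fell by 0.98 and 0.92, and GPD1L, related to a cytosolic dehydrogenase of this kind, rose by 0.72. SLC25A12, the other aspartate-glutamate carrier and chosen with its value known, rose by 0.30 (edgeR adjusted p = 0.0317).

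**Figure D5:**
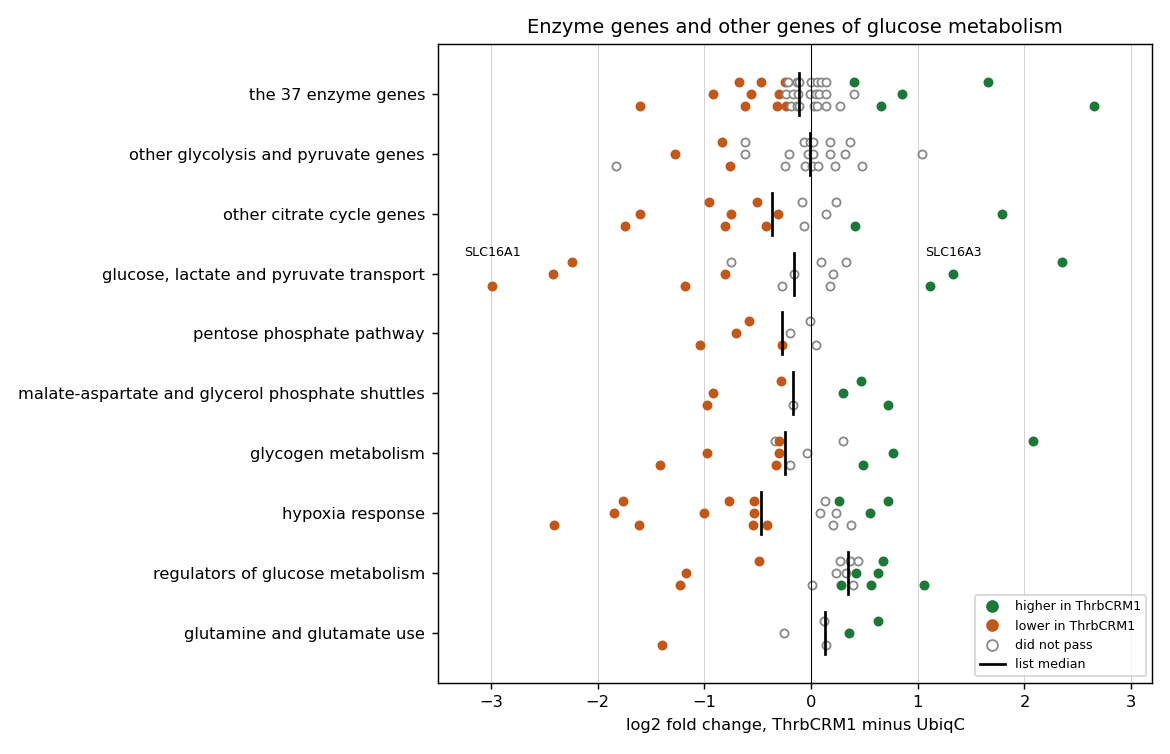
Log2 fold change (x axis, ThrbCRM1 minus UbiqC) of each tested gene in the enzyme set and in 9 lists of other genes of glucose metabolism (y axis), with filled points for genes past the test and a black bar at the list median. The medians run from -0.47 for hypoxia response genes to 0.35 for regulators, and SLC16A1 and SLC16A3 lie on opposite sides at -2.99 and 1.33.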

How the data were processed

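PolyA RNA was compared between 2 ThrbCRM1 and 2 UbiqC libraries, grouped by title. Per the submitters' processing notes, the authors used kallisto and sleuth on the build galGal5, whose tool versions are not given in the sources used here. Expected counts and TPM were deposited per transcript, under kallisto's column names per the file headers, beside transcript lengths in bases (other values). A comparison table by the authors holds a p-value and a q-value for each gene and an effect read as a natural log, whose sign is below 0 for genes higher in ThrbCRM1. The authors' deposited transcript sheet, used to pair transcripts with genes, holds a signal equal to TPM times a factor per library between 0.967 and 1.0354.

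Counts were summed by gene and rounded, without the reporter transcripts. Date-like symbols were resolved through the reference gene table by accession (GRCg7b, names only). No coordinates or sequences are given, and promoters were not analysed here. edgeR 4.0.16 (R 4.3.3) used filterByExpr (minimum count 10), TMM factors (0.988 to 1.007), the quasi-likelihood test and a Benjamini-Hochberg threshold of 0.05 over 16778 of 18300 genes. The common biological coefficient of variation was 10.6%. All fold changes are ThrbCRM1 minus UbiqC, with SE. Intervals (95%) use the moderated degrees of freedom of the fit. Levels are TPM and tests use counts, so the scales can differ slightly. Reads shared by related isozymes may be split between them. Replicates differed beyond counting noise (8.28 for ThrbCRM1 and 9.9 for UbiqC, as chi-square over its degrees of freedom). Alternatives used DESeq2 1.42.0, limma 3.58.1, other filters and each library left out, where the lone library of a group is assumed to vary like the other group. Scripts were tested on simulated data.

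The members and lists were chosen with earlier results of these data known. Values per library are given for genes past the test by 1.5-fold, for the most abundant gene of a step and for genes whose call changed. From each other list the 3 genes with the smallest p are named, except 1 that is not reported here.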

Additional observations from a re-analysis of the deposited data

How the results depend on the processing

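Of 15 enzyme genes called, 7 (HK2, PGK1, ENO1, ENO2, LDHA, LDHB and MDH1) kept call and direction under all 12 alternatives. Leaving out a library gave 3 to 4 enzyme genes higher, 5 to 10 lower, and 4474 to 6040 genes called in all (2195 to 3079 higher, 2279 to 2961 lower). The letter as a replicate block gave 6 higher and 13 lower enzyme genes and 8368 calls in all. It lost no enzyme call and added PFKL (edgeR adjusted p = 0.0198), ALDOC (0.0317), TPI1 (0.023) and IDH1 (0.0315). The letters share only a name in the labels, which do not state a pairing. Over the 16778 tested genes, the log2 difference of A and B in ThrbCRM1 had a correlation of 0.274 with that in UbiqC. The block gave 3 higher and 5 lower among other glycolysis genes, 5 higher among transport genes, 6 higher among hypoxia genes and 10 higher among regulators. The DESeq2 test gave 5 hypoxia genes higher and 3 glycogen genes lower. The 5 CPM filter left 3 transport genes lower and 6 hypoxia genes higher. limma on log2(TPM + 1) and on log2(TPM + 0.1) gave 5 hypoxia genes higher and 2 glycogen genes lower.

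Without a library the ranges were 0 to 3 higher among other glycolysis genes, 5 to 7 lower among other citrate cycle genes, 2 to 3 lower in the pentose phosphate list, 2 to 4 lower in the glycogen list and 1 to 2 higher in the glutamine list. Signs turned only for values near 0 that passed no test. PKM read 0.01 with DESeq2 size factors (0.0143), the DESeq2 test (0.0142) and the 5 CPM filter (0.0123), 0.0034 without a filter, 0.0596 on both TPM scales and 0.00026 with length offsets, and left-out libraries gave -0.062 to 0.069. PDK1 read 0.0019, 0.0034, 0.0579 and 0.0587 with DESeq2 size factors, the DESeq2 test and the TPM scales, and without a library -0.12 to 0.12. Without a library PFKP ran from -0.0083 to 0.122, DLAT from -0.047 to 0.103 and PDK3 from -0.266 to 0.043. On estimated counts the share differences in points were -11.3 for HK1, -1.83 for ENO1, 3.83 for LDHA, -1.74 for PDK1, -7.76 for PDK3 and 9.50 for PDK4. Without a library the share of IDH1 ran from -1.78 to 1.45 points and that of PFKFB3 from -0.567 to 0.872. PCK1 gave no value with the 5 CPM filter, on either TPM scale and without ThrbCRM1 A, nor did PFKFB4 with the 5 CPM filter. The causes were not tested.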

Other observations

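Genes of glycogen metabolism, which stores glucose, split in direction. Of 12 tested genes 3 rose and 5 fell, against 19.9% and 20.9% of all tested genes, with a median log2 fold change of -0.25. GBE1, the branching enzyme, stood at 10.0 and 9.55 TPM in ThrbCRM1 against 25.3 and 24.9 TPM in UbiqC (log2 fold change -1.42 ± 0.08, edgeR adjusted p = 8.05e-05), and PHKG1, a subunit of the kinase that activates glycogen breakdown, fell by 0.98. PYGL, a glycogen phosphorylase, rose to 63.8 and 61.0 TPM in ThrbCRM1, against 34.9 and 35.4 TPM in UbiqC (log2 fold change 0.77 ± 0.07). The count that fell was 2 without ThrbCRM1 A, 2 without ThrbCRM1 B and 3 without UbiqC A.

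Among 16 tested regulators of glucose metabolism 6 rose and 3 fell, against 19.9% and 20.9% of all tested genes, with a median log2 fold change of 0.35. MYCN and MYCL, of the MYC family of growth regulators, rose by 0.67 and 1.06, MYCN to 177 and 205 TPM in ThrbCRM1, against 108 and 115 TPM in UbiqC. PRKAA2, a catalytic subunit of the energy sensor AMPK, fell by 1.23. PRKAA1, its other catalytic subunit and chosen with its value known, rose by 0.28 (edgeR adjusted p = 0.0459). PRKAA1 was the more abundant, with means of 31.2 TPM in ThrbCRM1 and 24.6 TPM in UbiqC, against 5.55 and 12.2 TPM for PRKAA2. Of 6 genes of glutamine and glutamate use 2 rose and 1 fell, against the same shares. GLUD1, glutamate dehydrogenase, rose by 0.63. GLUL, the glutamine synthetase also used as a glial marker, stood at 10.0 and 7.84 TPM in ThrbCRM1 against 20.7 and 24.8 TPM in UbiqC (log2 fold change -1.40 ± 0.15). Without ThrbCRM1 A the count that rose was 1.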
